A study of Danio rerio with 73 samples.

Results

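Testes and ovaries of zebrafish that had been reared at 36 °C while their gonads formed were compared by the DNA methylation of a small panel of promoter amplicons. The members were chosen from the labels alone: libraries whose title has the prefix 204 and that carry the high-temperature treatment, 8 from testis and 12 from ovary. Ovary fish 14, with 1404 read calls in all, was left out by the same choice, so 19 of the 73 libraries of the series were compared, 8 testes against 11 ovaries. Each library is the gonad of 1 fish, and fish numbers are those of the titles.

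All fish were AB strain zebrafish, reared in aquarium facilities and sampled at an age of 90 days. Both groups had the 36 °C exposure, so neither is an unheated control. The controls with the same prefix were 10 testes and 9 ovaries from fish kept at 28 °C. The labels do not say what the prefixes 204 and 128 stand for, nor how long the exposure lasted, and they carry no transgene or mutation. The series design gives the regions as promoters of 18 genes. Gene annotation of the build used by the files (GRCz10) was not used here, so no amplicon is tied to a gene.

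Cytosine methylation at CpG sites is copied at each cell division and is often low at promoters that are in use. In zebrafish, as in other vertebrates, sperm and egg carry different methylation patterns, and mature testis is largely made of male germ cells while an ovary also holds oocytes and much somatic tissue. The zebrafish strains kept in laboratories have no single strong sex chromosome, and heat during gonad formation is known to shift the sex ratio towards males. In a whole gonad, a different mix of cells and a different level per cell cannot be told apart. No RNA was measured, so the labelled tissue could not be checked against marker genes.

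The level of a CpG in a fish is the percent of methylated among all reads, counted where at least 10 reads covered it. The level of an amplicon is the mean over its CpGs. The 19 libraries held 3681330 to 12565602 read calls, with medians of 7462410 in testis and 6565419 in ovary (exact permutation test, p = 0.677). Reads without molecular identifiers are not independent molecules, so the spread between fish, not the read depth, is the error used below. An amplicon or CpG is said to differ where a two-sided exact permutation test over every split of the fish with a level (75582 splits for 8 and 11 fish) gave a Benjamini-Hochberg adjusted p below 0.05. Amplicons were named by chromosome, with a letter by position where a chromosome holds several. By their mean over all fish of the series, 3 amplicons were high (above 90%), 9 intermediate and 8 low (below 5%).

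Testes 1 and 17 stood apart from the other testes. On a scale on which the median of the ovaries is 0 and the median of the other testes is 100, taken at the 11 intermediate and high amplicons that differed, the medians over the 10 at which they had a level were −1.80 for fish 1 and 13.3 for fish 17. Fish 1 lay within the range of the ovaries at 7 of these 10 amplicons and fish 17 at 8, and neither lay within the range of the other testes at any of them. The other 6 testes had medians of 88.2 to 105 on this scale. Among the ovaries, fish 4 had the highest median, 26.3, and the others lay between −14.8 and 6.45. Where fish 1 lay outside the ovary range, it lay within the range of the prefix 204 testes at 28 °C. This held at chr19b (68.4%, range 57.5 to 71.1%), chr5c (17.7%, 9.35 to 34.7%) and chr8 (87.1%, 85.2 to 91.3%). Fish 17 lay within that range at chr3a (45.2%, 25.7 to 59.5%) and chr19b (68.5%), but above it at chr8 (92.6%). Fish 1 and 17 carry the label testis and were kept in every main test at which they had a level, so not in that of chrUn. The amplicon difference at each tested intermediate or high amplicon is also given without them. That difference, and every count or call given without these 2 fish, is a description only, since they were picked by these same levels. Leaving them out was bound to part the groups further at the intermediate and high amplicons by which they were picked. Of the CpG counts given below, those past the threshold without them were 14 in place of 11 in chr16, 10 in place of 8 in chr20, 4 in place of 3 in chr14, 2 in place of 1 in chr8 and 23 in place of 22 in chr5c.

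Testis and ovary differed at 14 of the 19 amplicons tested (73.7%). Testes were higher at 13 (68.4%) and lower at 1 (5.26%). All 3 high amplicons and 7 of the 8 tested intermediate ones were higher in testis, and the remaining intermediate one was lower. Of the 8 low amplicons, 3 were higher and none was lower. The ranges of the groups did not overlap at 2 amplicons (10.5%). Without testes 1 and 17, 13 of 19 amplicons differed (68.4%), 12 higher (63.2%) and 1 lower (5.26%), and the ranges did not overlap at 10 (52.6%).

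Averaged over the panel, after each amplicon's own mean was subtracted, testes stood 11.9 points above ovaries (SE 2.54). The panel value averaged 6.98 ± 6.97 (SD, n = 8) over testes and −4.90 ± 2.04 (SD, n = 11) over ovaries (exact permutation test, p = 0.000344). Testes 1 and 17, at −5.30 and −3.11, lay among the ovaries, which ran from −8.25 to −1.04, and the other 6 testes ran from 9.74 to 12.1. The difference without fish 1 and 17 was 15.6 points.

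**Figure D1:**
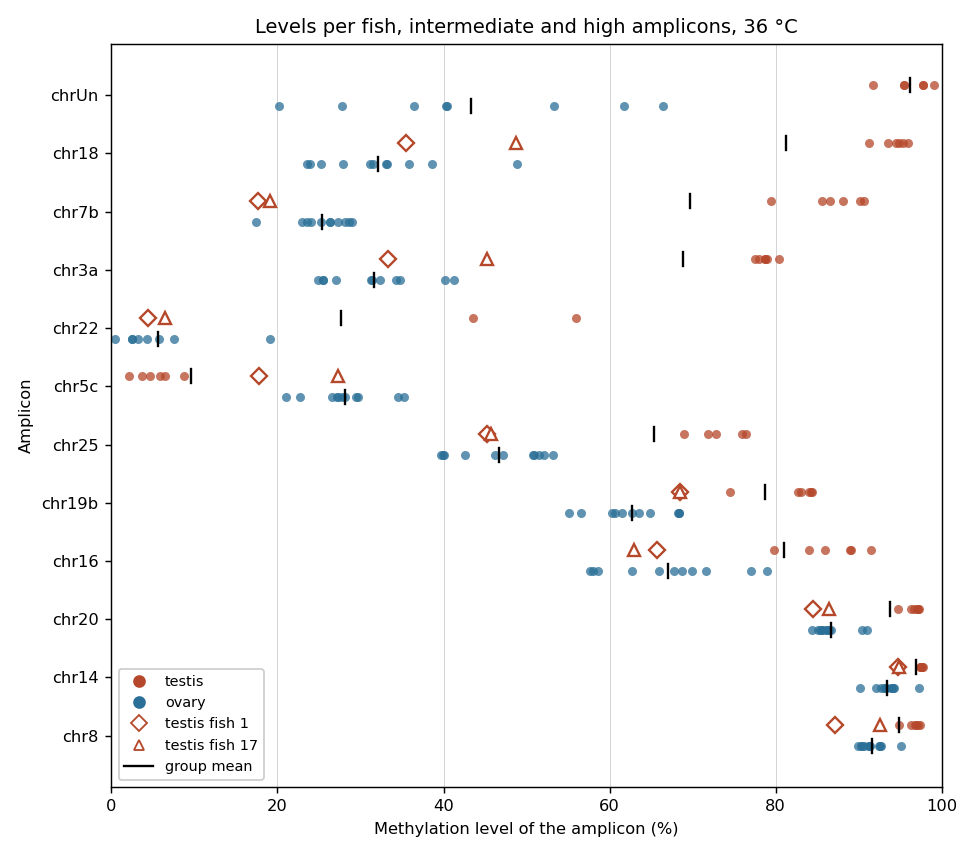
Methylation level of each fish (x axis, percent) at the 12 intermediate and high amplicons (y axis, ordered by class and size of the difference) after 36 °C. Points are fish, black bars are group means, and the open symbols are testes 1 and 17, which lie near the ovaries wherever they have a level, while the other testes form a separate group at 10 of the 11 tested amplicons.

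The largest differences were at 4 intermediate amplicons, at which ovary means lay between 25.4% and 43.3% and testis means between 68.8% and 96.2%.

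The amplicon chrUn, on an unplaced scaffold (KN150211v1, 6205 to 6328 on GRCz10, 5 CpGs), averaged 96.2% ± 2.59 (SD, n = 6) in testes against 43.3% ± 16.1 (SD, n = 8) in ovaries. The lowest, median and highest fish were at 91.7, 96.6 and 99.0% in testis and at 20.2, 40.3 and 66.5% in ovary, so every testis lay above every ovary. The difference was 52.8 points (SE 5.79, exact permutation test, adjusted p = 0.00105). Median depth there was only 22 reads per CpG in testis and 23 in ovary, and testes 1 and 17 had no level, so this difference is not comparable with those that include them.

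Chr18 (chr18:39655137-39655521, 15 CpGs) averaged 81.2% ± 24.4 (SD, n = 8) in testes against 32.1% ± 7.39 (SD, n = 11) in ovaries. The lowest, median and highest testes were at 35.5, 94.0 and 95.9%, and the corresponding ovaries at 23.6, 31.6 and 48.9%. Testes 1 (35.5%) and 17 (48.7%) lay inside the ovary range, and the 6 others lay far above it, from 91.2% up. The difference was 49.1 points (SE 8.92, exact permutation test, adjusted p = 0.00044), with 8 of 8 testes above the ovary mean, and was 62.1 points without those 2 fish. It was even along the amplicon: all 15 CpGs differed, by 46.8 points at position 39655510 to 50.8 points at position 39655202. Over all CpGs of the panel, 110 of 318 tested differed (34.6%), 87 higher (27.4%) and 23 lower (7.23%) in testis, and groups did not overlap at 5 (1.57%), the 5 of chrUn. The number differing without testes 1 and 17 was 116 of 316 (36.7%), 92 higher (29.1%) and 24 lower (7.59%), and 84 (26.6%) then had ranges that did not overlap.

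Chr7b (chr7:34854540-34854908, 9 CpGs) averaged 69.7% ± 31.8 (SD, n = 8) in testes against 25.4% ± 3.30 (SD, n = 11) in ovaries. Testes ran from 17.7% through a median of 86.1% to 90.6%, and ovaries from 17.5% through 26.3% to 29.0%. Testes 1 (17.7%) and 17 (19.1%) were here at the lower end of the ovaries, not above them. The difference was 44.3 points (SE 11.3, exact permutation test, adjusted p = 0.00273), with 6 of 8 testes above the ovary mean, and was 61.4 points without fish 1 and 17. All 9 CpGs differed, by 40.3 points at position 34854594 to 48.9 at position 34854855. The 2 fish did not track the ovaries evenly along the amplicon. At position 34854818, for example, they were at 9.29% and 4.48%, below all 11 ovaries, which ran from 14.5% to 27.3%, whereas at position 34854594 both lay inside the ovary range of 27.6 to 49.6%.

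Chr3a (chr3:17897376-17897597, 6 CpGs) averaged 68.8% ± 18.6 (SD, n = 8) in testes against 31.7% ± 5.70 (SD, n = 11) in ovaries. Testes ran from 33.3% through a median of 78.3% to 80.4%, and ovaries from 24.9% through 31.3% to 41.3%. Fish 1 (33.3%) lay inside the ovary range, fish 17 (45.2%) just above it, and the 6 other testes within 77.5 to 80.4%. The difference was 37.2 points (SE 6.78, exact permutation test, adjusted p = 0.00044), with 8 of 8 testes above the ovary mean, and 47.0 points without the 2 fish.

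All 6 CpGs of chr3a differed, the most at position 17897439 (46.4 points) and the least at position 17897380 (15.7 points, SE 6.07, adjusted p = 0.0206). The testes split at 17897380: fish 18, 19 and 2 were at 43.8, 45.5 and 47.5%, and fish 8, 11 and 13 at 18.4, 17.3 and 15.2%. The same fish split the other way at position 17897597, where fish 18, 19 and 2 were at 51.7, 50.3 and 51.0% and fish 8, 11 and 13 at 79.8, 79.9 and 80.6%. These 2 sites were singled out after their values were seen. At the 4 other CpGs the differences were even, and the amplicon mean hides the opposite order of the same fish at its 2 uneven sites.

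**Figure D2:**
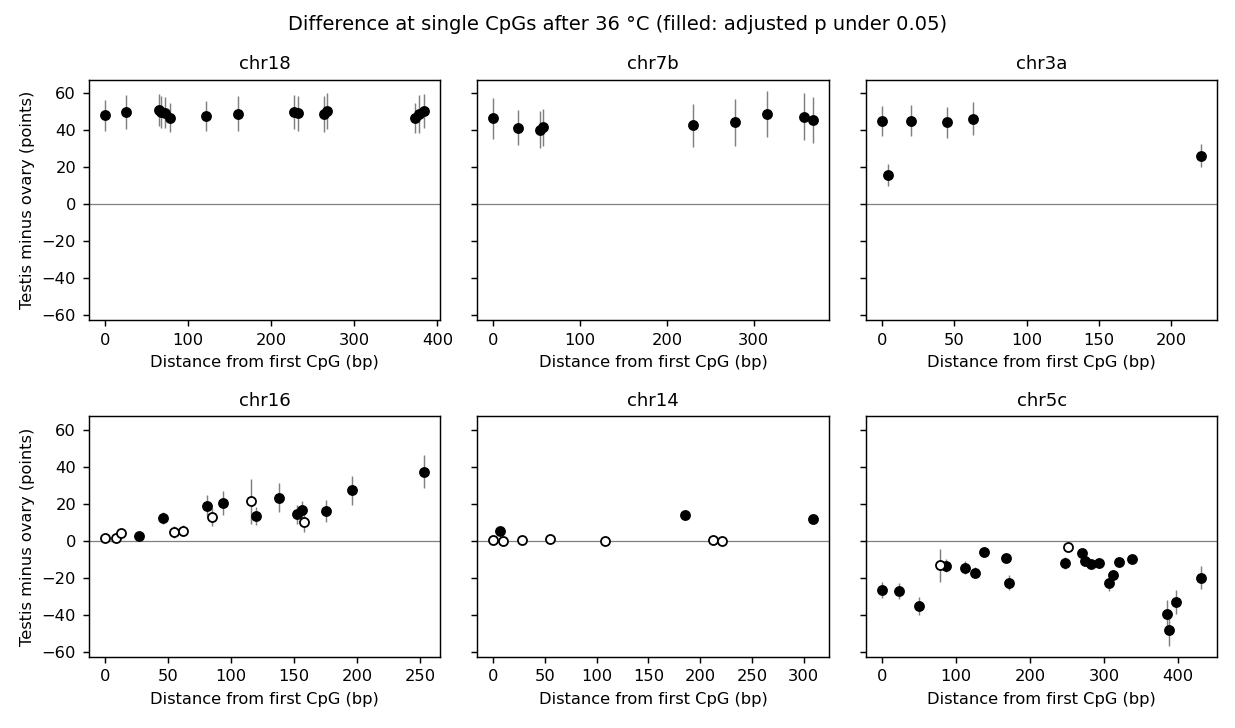
Difference in level between testis and ovary at single CpGs (y axis, percentage points, bars ± SE) along 6 amplicons (x axis, distance from the first CpG in bp). Filled points passed an adjusted p of 0.05. Chr18 is flat near 49 points, chr16 climbs from 1.59 points at its first CpG to 37.4 at its last, chr14 differs at 3 separate sites, and chr5c is negative throughout.

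Chr5c (chr5:44344567-44344999, 24 CpGs) was the only amplicon lower in testis past the threshold, with 9.59% ± 8.61 (SD, n = 8) against 28.2% ± 4.25 (SD, n = 11). Testes ran from 2.18% through a median of 6.16% to 27.3%, and ovaries from 20.97% through 27.8% to 35.3%. Fish 17 (27.3%) lay inside the ovary range, fish 1 (17.7%) between the groups, and the other testes at 8.78% or below. The difference was −18.6 points (SE 3.30, exact permutation test, adjusted p = 0.00044), with 8 of 8 testes below the ovary mean, and −22.9 points without fish 1 and 17.

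Of the 24 CpGs of chr5c, 22 were lower in testis past the threshold and the 2 others were lower without passing it. The differences ran from −3.53 points at position 44344819 to −48.4 points at position 44344955. They were largest near both ends: −35.2 points at position 44344617, and −39.3, −48.4 and −33.1 points at positions 44344952, 44344955 and 44344965. At position 44344955 ovaries ran from 60.5% to 78.2%, testes 1 and 17 were at 54.7 and 62.9%, and the other testes ran from 4.13% to 18.0%. Ovary levels thus rose and fell along the amplicon, and the size of the difference followed them: testis means stayed between 3.68% and 22.4% at all 24 CpGs. One CpG was uneven, position 44344645, with levels from 0 to 81.6% among ovaries and no called difference (−13.2 points, SE 9.04, adjusted p = 0.376).

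Chr5c lies near chr5d (chr5:44400346-44400733, 19 CpGs), a low amplicon. Testis and ovary there were at 3.68% ± 1.84 (SD, n = 8) and 5.33% ± 1.58 (SD, n = 11), a difference of −1.66 points that missed the threshold (exact permutation test, adjusted p = 0.0655). Only its first CpG, at position 44400346, differed, by −10.9 points (SE 3.34, adjusted p = 0.0171), with testes from 3.92% to 16.9% and ovaries from 8.15% to 44.9%. It is the only CpG outside chr5c that was lower in testis past the threshold. The last CpG, position 44400733, was covered by a median of 11 reads and had levels between 57.9% and 90.0% in the 4 testes and 8 ovaries with a level, while the 17 CpGs between the first and the last had group means of 0.547 to 3.13%. Fish without a level at that site (testes 1, 11, 13 and 17 and ovaries 4, 16 and 20) had amplicon means of 4.39% or lower, and fish with one had means of 3.95% or higher. With at least 30 reads required this site drops out, and chr5d was then lower in testis by 0.678 points (−0.678, exact permutation test, adjusted p = 0.0306). That mean includes the first CpG, at −10.9 points. The median difference over the 18 tested CpGs was −0.0741 points, so the lower mean was not shared along the amplicon.

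**Figure D3:**
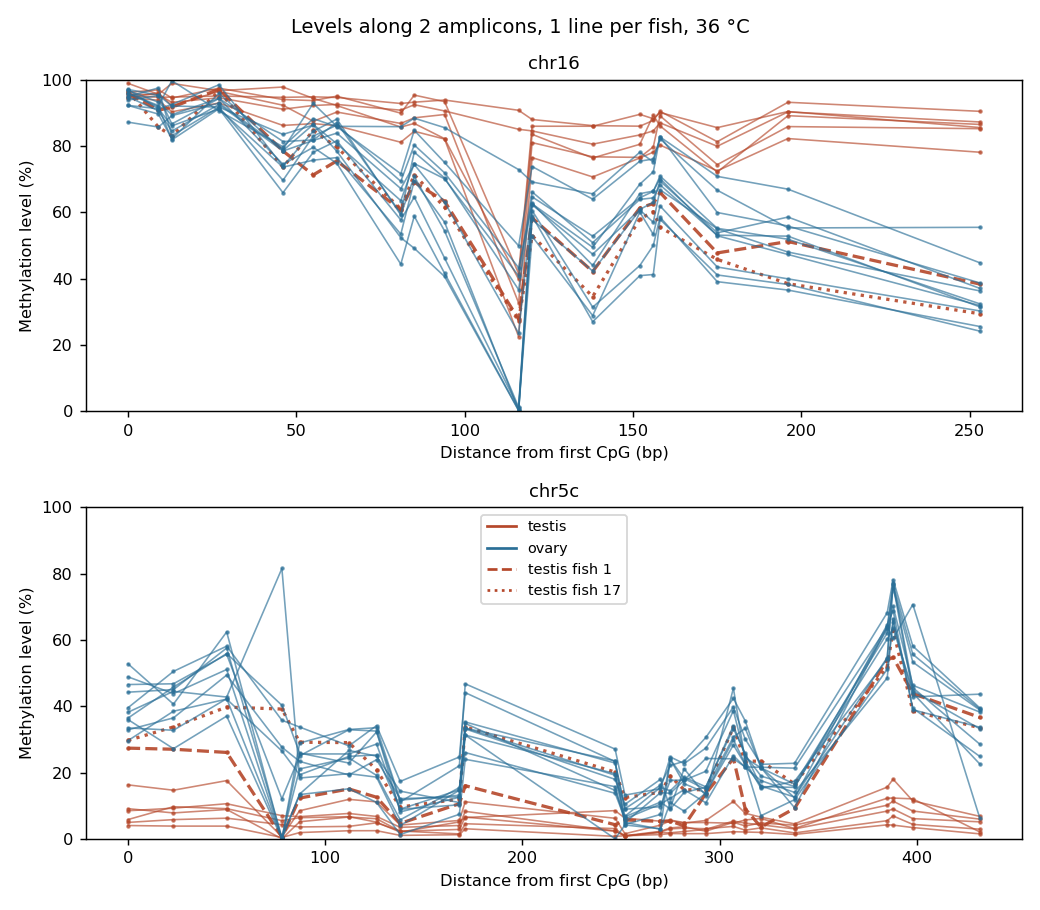
Methylation level (y axis, percent) of each of the 19 fish along chr16 and chr5c (x axis, distance from the first CpG in bp). Red lines are testes, blue lines ovaries, and the dashed and dotted lines are testes 1 and 17, which run among the ovaries along chr16, while in chr5c fish 17 does so and fish 1 lies lower at many CpGs. In chr16 the groups start together and part along the amplicon, and in chr5c the ovaries peak near the end while the 6 other testes stay low.

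Chr16 (chr16:54645605-54645858, 19 CpGs) averaged 81.0% ± 10.9 (SD, n = 8) in testes against 67.0% ± 7.30 (SD, n = 11) in ovaries. Testes ran from 62.9% through a median of 85.0% to 91.5%, and ovaries from 57.7% through 67.7% to 78.9%. The difference was 14.001 points (SE 4.43, exact permutation test, adjusted p = 0.00948), with 6 of 8 testes above the ovary mean, all but fish 1 and 17, and 19.5 points without these 2.

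The groups were close at the start of chr16 and far apart at its end. The first CpG was at 95.9% in testis and 94.4% in ovary, and the last, at position 54645858, at 72.6% ± 24.3 (SD, n = 8) and 35.3% ± 8.90 (SD, n = 11). Across the 19 CpGs, which share the same reads and fish, the difference and the distance from the first CpG had a Pearson r of 0.847. In all, 11 of the 19 CpGs were higher in testis past the threshold. The smallest difference was 1.48 points at position 54645614 (adjusted p = 0.554) and the largest 37.4 points at position 54645858 (adjusted p = 0.00403).

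Position 54645721 of chr16 broke this pattern, and was singled out after its values were seen. Ovaries 3, 5, 9, 10 and 16 were at 0.205, 0.872, 1.15, 0.215 and 0.174%, and the 6 other ovaries between 23.5% and 72.9%. Testes 2 and 19 were at 90.8 and 85.1%, and the 6 other testes between 22.5% and 41.5%. Levels thus jumped between fish within each tissue, at a median depth of 7033 reads, while the CpG 4 bp further on, at position 54645725, differed by 13.5 points with no such jump. The difference at 54645721 itself, 21.4 points (SE 12.2), did not pass (adjusted p = 0.205). It did pass in limma on log2 ratios of methylated to unmethylated reads (3.62, adjusted p = 0.0298).

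Chr19b (chr19:27434975-27435361, 7 CpGs) averaged 78.7% ± 7.11 (SD, n = 8) in testes against 62.7% ± 4.55 (SD, n = 11) in ovaries. Testes ran from 68.43% through a median of 82.8% to 84.4%, and ovaries from 55.1% through 62.7% to 68.38%. The groups did not overlap, but only narrowly: testes 1 (68.43%) and 17 (68.48%) lay just above the highest ovary. The difference was 16.0 points (SE 2.86, exact permutation test, adjusted p = 0.000251), and 19.4 points without fish 1 and 17. All 7 CpGs differed, from 4.13 points at position 27435361, where the call was lost without any 1 of 8 fish, to 35.1 points at position 27435056. The latter was uneven between fish: ovaries 6, 7, 10 and 20 were at 71.6 to 78.3%, the 7 other ovaries at 29.9 to 39.2%, and testis 18 was at 47.8% while the other testes were at 74.0% or above.

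Chr25 (chr25:22224443-22224607, 8 CpGs) averaged 65.3% ± 13.8 (SD, n = 7) in testes against 46.7% ± 5.34 (SD, n = 11) in ovaries. Testes ran from 45.2% through a median of 71.8% to 76.5%, and ovaries from 39.7% through 47.2% to 53.2%. Fish 1 (45.2%) and 17 (45.7%) lay inside the ovary range and the other 5 above it. The difference was 18.6 points (SE 5.45, exact permutation test, adjusted p = 0.00332), and 26.5 points without them. All 8 CpGs differed, by 7.58 points at position 22224550 to 29.0 points at position 22224496, at a median depth of 173 reads in testis and 381 in ovary.

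The remaining intermediate amplicon, chr22 (chr22:20736688-20736788, 6 CpGs), could not be tested, since only 4 testes had a level. Testes 8 and 18 were at 55.9 and 43.6%, testes 1 and 17 at 4.45 and 6.41%, and the 8 ovaries ran from 0.417% through a median of 3.78% to 19.1%. The median depth was 10.8 reads in testis and 47 in ovary. Of its 2 CpGs with 5 or more fish per group, position 20736744 differed, by 40.8 points (SE 17.4, exact permutation test, adjusted p = 0.0312).

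The 3 high amplicons were nearly fully methylated in testis and slightly less so in ovary. Chr20 (chr20:1252974-1253280, 10 CpGs) averaged 93.7% ± 5.22 (SD, n = 8) in testes against 86.6% ± 2.12 (SD, n = 11) in ovaries. Its testes ran from 84.4% through a median of 96.5% to 97.3%, and its ovaries from 84.4% through 86.1% to 91.0%. Testes 1 and 17 lay among the ovaries and the other 6, from 94.7% up, above them all. The difference was 7.12 points (SE 1.95, exact permutation test, adjusted p = 0.0033), and 9.90 points without fish 1 and 17. Of the 10 CpGs, 8 differed, from 2.77 points at position 1253110 to 14.2 points at position 1253053. The call at 1253110 was lost without any 1 of 14 fish, and with a minimum of 100 reads (adjusted p = 0.0512).

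Chr14 (chr14:23501841-23502150, 10 CpGs) averaged 96.8% ± 1.25 (SD, n = 8) in testes against 93.4% ± 1.73 (SD, n = 11) in ovaries. Testes ran from 94.8% through a median of 97.5% to 97.7%, and ovaries from 90.1% through 93.3% to 97.3%. Ovary 4, at 97.3%, was the one ovary near the upper testes. The difference was 3.40 points (SE 0.685, exact permutation test, adjusted p = 0.00105), and 4.07 points without testes 1 and 17. Of the 10 CpGs, 3 passed the threshold. These were positions 23501847 (5.27 points, SE 0.863), 23502026 (14.1 points, SE 2.67) and 23502150 (11.8 points, SE 2.62), and the 7 others differed by −0.302 to 1.22 points, the smallest in size being 0.105 points at position 23502062. At position 23502026, ovary 4 was at 94.8% and the other ovaries between 68.8% and 88.1%, against 88.03 to 96.7% in testis.

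Chr14 also took a different share of the reads. It held 16.3 to 38.6% of a testis library's read depth over the amplicons, and 0.633 to 5.74% in 8 ovaries but 23.9, 42.0 and 47.1% in ovaries 16, 20 and 4. Median depth per CpG was 92038 reads in testis and 6508 in ovary. The part of depth in the methylation difference was not tested. Among the 3 ovaries with a high share, fish 4 had the highest chr14 level of all ovaries (97.3%), and fish 16 and 20 were at 93.9 and 94.0%. All 3 belong to the 5 ovaries, described below, whose share of calls outside the amplicons was at or above the lowest testis.

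Chr8 (chr8:29856084-29856417, 4 CpGs) averaged 94.9% ± 3.50 (SD, n = 8) in testes against 91.6% ± 1.48 (SD, n = 11) in ovaries. Testes ran from 87.1% through a median of 96.5% to 97.3%, and ovaries from 89.9% through 91.3% to 95.0%. Testis 1, at 87.1%, lay below every ovary. The difference was 3.27 points (SE 1.32, exact permutation test, adjusted p = 0.021), with 7 of 8 testes above the ovary mean, and 4.94 points without fish 1 and 17. Position 29856417 was the only CpG of 4 to differ (5.51 points, SE 1.40, adjusted p = 0.00592), and position 29856084 had the smallest difference (1.05 points).

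The 8 low amplicons had group means between 0.420% and 5.33%, and 14 of their 199 tested CpGs differed, against 34.6% over all CpGs. At this height 1 fish can set a mean. Testis 11 was the highest testis at 6 of the 7 low amplicons at which it had a level, and its mean over them was 3.40%, against 0.813 to 1.48% in the other testes.

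Of the low amplicons, chr1 (chr1:6886521-6886862, 20 CpGs), chr3b (chr3:54352466-54352868, 26 CpGs) and chr7a (chr7:22538693-22539035, 31 CpGs) were higher in testis. Chr1 averaged 1.29% ± 0.746 (SD, n = 7) in testes against 0.820% ± 0.104 (SD, n = 11) in ovaries, with testis 11 at 2.88% and the next at 1.48% (exact permutation test, adjusted p = 0.0151). Without testis 11 the difference at chr1 was 0.204 points in place of 0.470 and still passed. Testis 2, the fish at 1.48%, was at 15.8% on 5417 reads at position 6886624, the CpG of largest difference in chr1. There testis 11 was at 2.33% and ovary 4, the highest ovary, at 1.56%. Without testis 2 the difference at that CpG was 0.273 points. At every other CpG of chr1 testis 2 lay between 0.351% and 1.24%, below its amplicon mean of 1.48%. Whether the call at chr1 holds without position 6886624, with or without testis 11, was not tested. The differences at chr3b, 0.246 points (adjusted p = 0.0449), and chr7a, 0.249 points (adjusted p = 0.0446), were 0.130 and 0.0590 points without testis 11 and no longer passed.

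Small called differences at single CpGs of the low amplicons were 1 of 20 in chr1, 4 of 26 in chr3b and 5 of 31 in chr7a. The largest in chr3b was 1.05 points at position 54352768, where testis 19 was at 4.21% on 356 reads and the difference without that fish was 0.492 points. The only one past the threshold in chr1 was 0.737 points at position 6886816. In chr7a, position 22539035 was at 0.583% in testis and 0.153% in ovary (difference 0.430 points, SE 0.152, exact permutation test, adjusted p = 0.00308).

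The other low amplicons did not pass. Chr5b (chr5:34961306-34961660, 34 CpGs), the most deeply covered of the low amplicons, differed by 1.29 points (SE 1.20, exact permutation test, adjusted p = 0.0803). Testis 11 was there at 10.2% and every other testis at 0.987% or below, and without that fish the difference was 0.0897 points. Chr15 (chr15:7060346-7060685, 26 CpGs) differed by 0.127 points (adjusted p = 0.98), with testis 11 at 4.42% and all other testes at 1.06% or below. It was the only low amplicon without a CpG past the threshold. Chr5a (chr5:23697173-23697500, 26 CpGs) differed by −0.204 points (adjusted p = 0.0803) and chr19a (chr19:1356464-1356767, 18 CpGs) by 0.0292 points (adjusted p = 0.746).

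**Figure D4:**
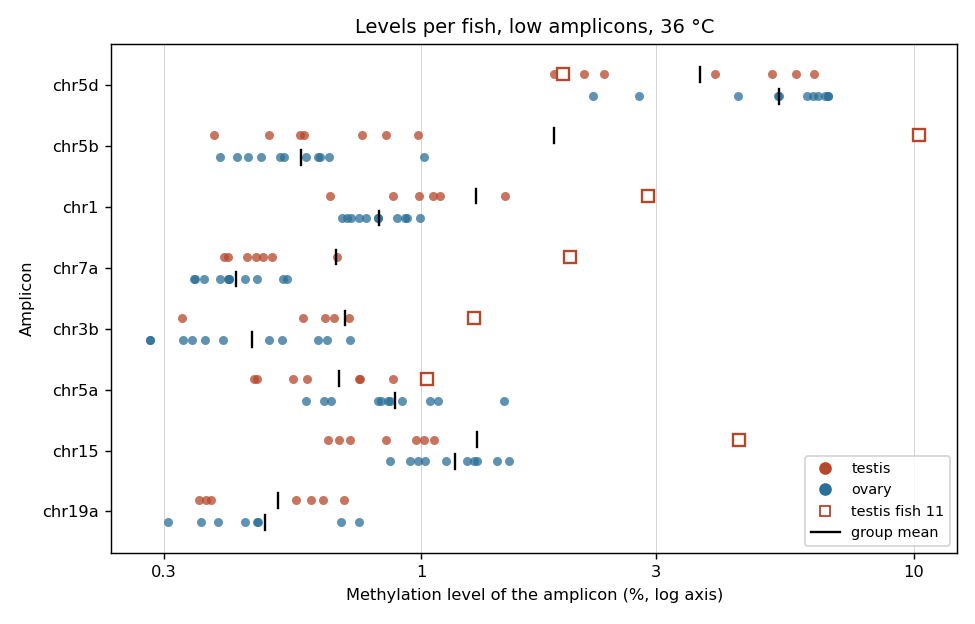
Methylation level of each fish (x axis, percent, log axis) at the 8 low amplicons (y axis). Points are fish, black bars are group means, and the open squares are testis 11, which stands far to the right at chr5b (10.2%) and chr15 (4.42%) and is the highest testis at 6 of the 7 amplicons where it has a level.

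The size of the gonad difference after 36 °C was set beside that at 28 °C in fish of the same prefix, and the difference between them was tested by permuting residuals of the additive model (100000 resamples). The 10 libraries labelled testis at 28 °C with prefix 204 went against the pattern of the other testes. At chr18 they had 38.7% ± 7.75 (SD, n = 8, range 25.1 to 49.1%), beside 32.4% ± 6.13 (SD, n = 9) in ovaries at 28 °C. Testes at 28 °C with the prefix 128 had 87.1% ± 20.5 (SD, n = 13) and their ovaries 30.5% ± 12.1 (SD, n = 8), a gap of 56.6 points, so the low level at 28 °C was not shared by both prefixes. With prefix 128 at 28 °C the gap was 60.2 points at chr7b, 41.4 at chr3a, 40.5 at chrUn, 23.9 at chr25 and −22.5 at chr5c. It was 18.0 points at chr19b, 10.5 at chr20, 5.62 at chr8, 4.59 at chr14 and −0.0847 at chr3b. Every value of the next paragraph rests on the 10 libraries labelled testis at 28 °C with prefix 204. Whether their labels match the tissue could not be checked, so temperature and a mix-up of labels cannot be told apart there.

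Within prefix 204, the difference at 36 °C departed from that at 28 °C at 11 of 20 amplicons (55% of those tested, permutation test, Benjamini-Hochberg adjusted p below 0.05). For chr18 it was 49.1 points (SE 8.92) at 36 °C and 6.31 points (SE 3.42) at 28 °C, and for chr7b 44.3 points (SE 11.3) and −3.54 points (SE 3.23). Chr5c was lower in testis by 18.6 points at 36 °C (−18.6, SE 3.30) and by 3.69 points at 28 °C (−3.69, SE 4.00, with 4 ovaries). All 11 were amplicons that differed at 36 °C, and 10 of them were intermediate or high. The same 36 °C fish enter both tests, so this overlap is not a separate result. Chr16 missed the threshold (11.98 points between the 2 differences, adjusted p = 0.0583), as did chr22 (17.1 points, adjusted p = 0.0988). The chr16 value passed without any 1 of 9 fish. In limma on log2 ratios it passed without a block (adjusted p = 0.0262), but not with fish number as a block (adjusted p = 0.216). Without testes 1 and 17 the count was 12 of 19 (63.2%), with chr16 among them (17.5 points). This count is a description only, as those 2 fish were picked by their levels. When all 7 groups of both prefixes entered 1 fit with the prefix as a term (limma on log2 ratios of methylated to unmethylated reads), 0 of 20 amplicons passed and 1 had an unadjusted p below 0.05. That fit gave both prefixes the same tissue effect, although testes at 28 °C differed by prefix (chr18 at 38.7% and 87.1%). It also held no ovary at 36 °C with prefix 128. Its count therefore does not test the contrast within prefix 204.

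**Figure D5:**
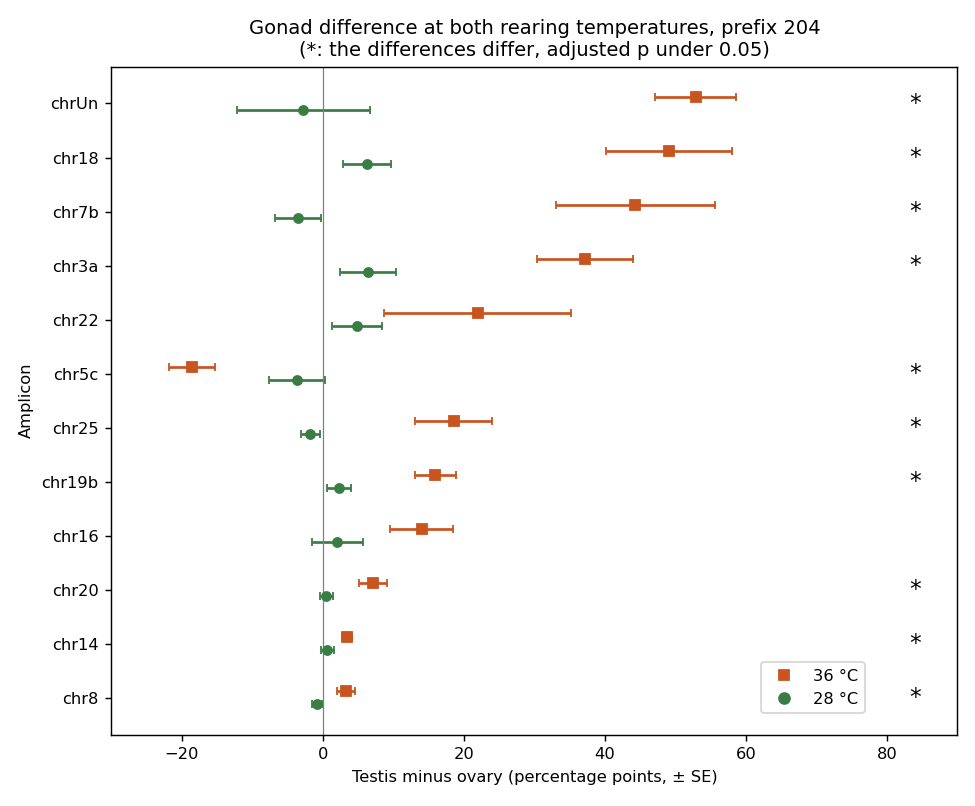
Difference between testis and ovary (x axis, percentage points, ± SE) at the 12 intermediate and high amplicons (y axis) in fish of prefix 204 reared at 36 °C (squares) and 28 °C (circles). Stars mark the 10 of these amplicons where the 2 differences differed, and the 28 °C values all lie between −3.69 and 6.38 points.

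The ovaries were split by the share of read calls outside the amplicons. The share of read calls that fell outside the amplicons was 0.128 to 0.656% in the 8 testes and 0.277 to 1.22% in ovaries 3, 4, 6, 16 and 20, but 0.00168 to 0.0159% in ovaries 5, 7, 9, 10, 12 and 15. The labels name no run or date, so what the split stands for is not given. Between the 2 sets of ovaries, 0 of 16 tested amplicons differed (exact permutation test, Benjamini-Hochberg adjustment), and 1 had an unadjusted p below 0.05, chr14 (1.91 points, p = 0.0411). With 5 and 6 fish this test had little power, so it does not show the sets to be alike. Chr5d was lower by 1.69 points in the set with more calls outside (−1.69), beside −1.66 points between testis and ovary. In both, the mean of a fish includes the last CpG of chr5d, position 44400733, only if it had a level there. That CpG lay far above the CpGs before it. Ovaries 4, 16 and 20 had no level there, and all belong to the set with more calls outside. Without that CpG, at a minimum of 30 reads, testis minus ovary was −0.678 points. How much that CpG adds to the gap between the sets was not tested. Chr18 differed between the sets by 4.89 points, beside 49.1 between testis and ovary. Ovaries 3 (0.780%) and 4 (1.22%) were above the highest testis. Against the 5 ovaries with a share at or above that of the lowest testis, 7 of 16 amplicons differed (43.8%). Chr18 differed there by 46.4 points, chr7b by 43.96, chr3a by 36.0, chr19b by 16.0 and chr5c by −19.6 points, each past the threshold, as were chr14 (2.36 points, against 3.40 with all ovaries) and chr5a (−0.329 points, against −0.204, which had not passed). Chr16 (13.6 points), chr20 (6.65 points), chr25 (16.4 points) and chr8 (2.82 points) no longer passed with 5 ovaries, nor did chr1 (0.481 points), chr3b (0.218 points) and chr7a (0.245 points), and chrUn had too few ovaries to be tested. At single CpGs 9 of 267 passed (3.37%) and 89 had an unadjusted p below 0.05. With 8 and 5 fish there are only 1287 splits, so 1 CpG alone cannot pass the adjustment over 267. This count is thus not comparable with that for all ovaries. Positions 39655202 (47.8 points) and 44344955 (−48.4 points), for example, missed the threshold at an adjusted p of 0.0585. The 6 other ovaries have no testis with a share as low as theirs, so no difference could be taken within that set.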

How the data were processed

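Genomic DNA of 1 gonad per library was bisulfite-converted, amplified as a multiplex of promoter regions and sequenced on an Illumina HiSeq, per the labels' protocols. From each fish the authors deposited the counts of methylated and unmethylated reads per CpG and strand. The deposited counts are whole and unscaled. Reads were handled with Bismark 16.0, Bowtie2, Trim Galore 0.4.5 and FastQC 0.11.6 on GRCz10, per the submitters' processing notes. Not given in the sources used here are duplicate removal, primers and conversion rates.

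CpGs with at least 10 reads in at least 50% of the 73 fish were kept (324 of 25217), and 323 of them, joined at gaps up to 200 bp, formed 20 amplicons of at least 2 CpGs. CpG levels were averaged to an amplicon level if at least 50% of them were present. High and low amplicons were set at means above 90% and below 5%. Tests needed 5 fish per side, or 3 per group for tissue by temperature, with Benjamini-Hochberg adjustment over all amplicons or all CpGs of a comparison at 0.05. The tests were run on simulated data that gave all groups the same spread. That does not check them for groups of unequal spread, as at chr7b (SD 31.8 in testes and 3.30 in ovaries). Every amplicon was named, with the CpGs of largest and smallest difference in each called intermediate or high one except chrUn. For chrUn and the called low amplicons not all of these CpGs were described. Tools were Python 3.11.15, numpy 2.4.6, scipy 1.17.1, R 4.3.3 and limma 3.58.1. Coordinates are 1-based on GRCz10. The gene table given is of GRCz12tu, so the gene lists could not be applied and 0 genes were matched. Fish numbers do not pair the samples: 0 numbers are shared by the testes and ovaries at 36 °C. The libraries, lists and tests were chosen with earlier results of these data known. The labels name no tank or family, so fish of a group may share either and a p-value covers only their spread.

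Alternatives were minimums of 5, 30 and 100 reads, pooled counts, gaps of 500 bp, coverage in 80% of fish, ovary 14 kept, limma, fish number as a block, all 7 groups, and each fish left out in turn. Added after the data were seen were the values without testes 1 and 17 and those with the 5 ovaries whose share of reads outside the amplicons was at or above the lowest of the testes.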

Additional observations from a re-analysis of the deposited data

Results flagged for a closer look

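Single fish stood far from the rest of their group in 6 of the 27 groups of 4 to 10 fish examined, by Dixon's criterion. Independent groups of normally distributed values meet it in about 1 of 20. The groups here share the same fish, so that rate does not measure how often chance would give such fish. Ovaries were examined only at chr15, chr19a, chr22 and chrUn, since elsewhere 11 had a level. Testes and ovaries were thus not examined alike. In 4 of the 6 the fish was testis 11. It was at 2.88% at chr1, where the next testis was at 1.48%, at 4.42% at chr15 (next 1.06%), at 10.2% at chr5b (next 0.987%) and at 2.003% at chr7a (next 0.675%). Ovary 4 was at 19.1% at chr22, where the next ovary was at 7.53%, and testis 1 was at 87.1% at chr8, where the next lowest testis, fish 17, was at 92.6%.

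The gonad difference differed between the rearing temperatures within prefix 204, by the permutation of residuals with Benjamini-Hochberg adjustment, at 11 amplicons. The difference at 36 °C minus that at 28 °C was 55.6 points at chrUn, 47.8 at chr7b, 42.8 at chr18, 30.8 at chr3a, 20.3 at chr25, 13.7 at chr19b, 6.66 at chr20, 4.15 at chr8, 2.74 at chr14 and 0.319 at chr3b. It was −14.9 points at chr5c. Without testis 11 the value at chr3b was 0.203 points and no longer passed (adjusted p = 0.064), and the call at chr14 was lost without any 1 of 5 fish (adjusted p up to 0.0619). Each uses the libraries labelled testis at 28 °C with prefix 204, whose levels lay near those of ovaries. Temperature and a mix-up of labels cannot be told apart in these values.

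The share of an amplicon's reads in a library, outside the methylation comparison, differed between testis and ovary at 2 of 20 amplicons (10%, exact permutation test of log2 shares with a pseudocount of 0.001 percentage points, Benjamini-Hochberg adjustment). Chr14 took more of the depth in testis, by 2.90 on the log2 scale (adjusted p = 0.0449), and chr18 less, by −1.93 on the log2 scale (adjusted p = 0.014). The chr14 share also followed the split of the ovaries by calls outside the amplicons. The 6 ovaries with few such calls, a set without a testis, held 0.633 to 4.96%. Of the 5 others, ovaries 4, 16 and 20 held 47.1, 23.9 and 42.0%, and ovaries 3 and 6 held 0.977 and 5.74%. The part of that split in the chr14 share was not tested. The part of these shares in the methylation differences at chr14 and chr18 was not tested.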

How the results depend on the processing

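With 1 of the 19 fish left out, 12 to 15 amplicons and 96 to 118 CpGs differed, and the panel difference was 11.2 to 13.6 points. Tissue by temperature passed at 10 to 13 amplicons with 1 of 38 fish left out. Against the 5 ovaries with a share of outside reads at or above the lowest testis, 7 amplicons and 9 CpGs passed, and the signs turned at CpGs 6886792 (−0.0224 points) and 23502062 (−0.319 points), neither past a threshold. The cause was not tested, though fewer ovaries entered and the 1287 splits of 8 and 5 fish limit how small a p can be. With all 7 groups in limma, 0 amplicons passed for tissue by temperature and chr14 turned (−0.0837 log2 ratio). In the fit with fish number as a replicate block, 8 of 19 amplicons passed and chr1 turned (−0.170 log2 ratio). Limma without a block turned chr15 for tissue (−0.160 log2 ratio), and 5 reads turned chr5d for tissue by temperature (0.269 points). No result past its threshold changed sign in any setting except chr14 in the fit of all groups.

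Leaving out 1 fish turned some differences near 0 that had not passed: chr15 (−0.319 to 0.219), chr19a (−0.00189 to 0.0674), CpGs 6886792 (−0.0470 to 0.241), 23502062 (−0.222 to 0.416), 54352634 (−0.210 to 0.129) and 22538743 (−0.206 to 0.174), and tissue by temperature at chr15 (−0.841 to 0.272), chr19a (−0.0480 to 0.0355), chr1 (−0.104 to 0.465) and chr7a (−0.341 to 0.199), all in points. The calls at chr3b and chr7a were lost without any 1 of 13 and of 10 fish, and in limma, which also lost chr1. No paired analysis was possible because the testes and ovaries at 36 °C share no fish number. Across temperatures 17 numbers are shared, with correlations of −0.697 to 0.627, 6 of them over 0.1, and 0 of 17 fish correlated best with its own number. Depth limits chrUn and chr22 most, at 22 and 10.8 reads in testis.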
